A study of Mus musculus with 12 samples.

Results

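Long-chain fatty acids are burned in the mitochondrial matrix, and 10 genes of this route are described here in mouse liver: Cpt1a, Cpt1b, Slc25a20 and Cpt2 of the carnitine shuttle, and Hadha, Hadhb, Hadh, Echs1, Eci1 and Decr1 of the matrix steps. They were taken by gene symbol from a table of 27105 genes, and all 10 were found. RNA was sequenced from 6 livers of mice on a ketogenic diet, in which fat replaces most carbohydrate, and from 6 livers of mice on a control diet. The series design calls the 6 libraries of a diet biological replicates. The libraries are named by diet and replicate number (ketogenic 4, control 6). The sources used here do not give the strain, sex, age, diet composition, length of feeding or hour of collection.

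The carnitine shuttle moves long-chain acyl groups across the inner mitochondrial membrane. CPT1 on the outer membrane joins the acyl group to carnitine, the carrier SLC25A20 exchanges acylcarnitine for free carnitine, and CPT2 on the matrix side gives the acyl group back to coenzyme A. CPT1 is inhibited by malonyl-CoA, the building block of fatty acid synthesis, and is known as the gate of the pathway in liver. In the matrix each round of beta-oxidation runs through a dehydrogenase, a hydratase, a second dehydrogenase and a thiolase. The trifunctional protein carries the last 3 of these activities for long chains, and soluble enzymes take over as the chain shortens. In liver much of the acetyl-CoA produced goes into ketone bodies, and the nuclear receptor PPAR-alpha is known to raise many of these genes in fasting.

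The libraries held 30.2 to 33.5 M counts. Hepatocyte markers summed to 79040 to 101115 CPM (counts relative to the TMM-scaled library total) in ketogenic and 86352 to 127164 CPM in control livers, none of the 8 called. Of the skeletal muscle markers 9 of 10 were in the table and summed to 0.0850 to 0.380 CPM in ketogenic and 0.0704 to 0.306 CPM in control livers, and none of the 26 markers tested, from 6 of the 9 lists, was called. The skeletal muscle, heart muscle and adipocyte markers were too low to test. Adipocyte markers, 5 of 6 in the table, summed to 0.120 to 1.61 CPM in ketogenic and 0.0336 to 0.180 CPM in control livers, with the defining marker Adipoq at a mean of 0.0142 CPM in ketogenic and 0.0101 CPM in control livers. Most of the higher sum was Cidea, a lipid droplet gene singled out after its values were seen, at 0.465 ± 0.537 CPM in ketogenic and 0.0412 ± 0.0365 CPM in control livers (SD, n = 6 each) without overlap. The part of these markers in the results was not tested. In bulk tissue fewer cells of a type and less RNA per cell cannot be told apart. Ketogenic 4 stood apart, with a median correlation of 0.951 to the other livers of its diet, against 0.978 to 0.984 for the other ketogenic and 0.972 to 0.981 for the control livers. Its short transcripts were high and its long ones low. Spearman's rho across 13972 genes between its deviation from its diet and transcript length was -0.592, against -0.423 to 0.440 in the other 11 livers, as a description over genes that are not independent.

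Hadha and Hadhb, which encode the alpha and beta subunits of the trifunctional protein, are a divergent pair. In the deposited coordinates, for which no build is named, Hadha (ENSMUSG00000025745) lies on the minus strand of chromosome 5 from 30323302 to 30360160 and Hadhb (ENSMUSG00000059447) on the plus strand from 30360246 to 30389591, with 85 bases between them. RefSeq's table on GRCm38.p6 held promoters for 8 of the 10 genes, without Cpt1b and Decr1. There the starts of the pair are 272 bases apart, and the 250 bases before one start share 228 bases with the 250 before the other, read on opposite strands. The windows shown are that of Hadhb, whose first 228 bases are shared with Hadha (chr5:30155003-30155252, plus strand), Eci1, the gene with the largest rise (chr17:24426433-24426682, plus strand), Cpt1a, the gate of the pathway (chr19:3323051-3323300, plus strand), and Echs1, the only one of the 8 windows with a match to a direct repeat of the nuclear receptor site (chr7:140116422-140116671, minus strand). Each runs 5′ to 3′ up to the base before the start, and capitals mark matches to the searched motifs.
Hadhb: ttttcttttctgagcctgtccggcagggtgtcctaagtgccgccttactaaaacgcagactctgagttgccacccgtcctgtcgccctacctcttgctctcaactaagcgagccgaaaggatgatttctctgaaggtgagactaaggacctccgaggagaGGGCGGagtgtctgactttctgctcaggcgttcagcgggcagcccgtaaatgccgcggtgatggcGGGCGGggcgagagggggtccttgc
Eci1: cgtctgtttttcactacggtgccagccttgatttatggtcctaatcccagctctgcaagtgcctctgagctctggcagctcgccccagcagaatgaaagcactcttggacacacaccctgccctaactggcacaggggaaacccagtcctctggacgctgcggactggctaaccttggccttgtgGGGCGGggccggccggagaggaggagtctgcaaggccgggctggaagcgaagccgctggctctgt
Cpt1a: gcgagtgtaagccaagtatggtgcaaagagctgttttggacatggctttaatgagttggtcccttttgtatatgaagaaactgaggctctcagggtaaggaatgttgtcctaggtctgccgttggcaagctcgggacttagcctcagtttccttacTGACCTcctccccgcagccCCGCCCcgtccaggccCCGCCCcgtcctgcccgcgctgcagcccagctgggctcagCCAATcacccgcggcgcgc
Echs1: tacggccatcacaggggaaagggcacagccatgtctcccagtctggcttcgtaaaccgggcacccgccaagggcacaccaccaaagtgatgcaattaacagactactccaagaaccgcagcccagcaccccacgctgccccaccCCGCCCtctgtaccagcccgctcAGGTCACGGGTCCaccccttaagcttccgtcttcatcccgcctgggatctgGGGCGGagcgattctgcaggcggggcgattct

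The motifs searched on both strands were the nuclear receptor site AGGTCA, a direct repeat of 2 such sites with 1 base between them and up to 2 mismatches, the GC box GGGCGG and the CCAAT box CCAAT. The single site can lie inside the direct repeat, so these matches overlap, as they do in Echs1. A GC box was present in all 8 windows, against 32.7% of 32851 RefSeq windows of the same length. The only box of the Hadha window is the same site as the Hadhb box 90 bases before its start, in the shared stretch. The 8 windows are thus not independent. These 8 windows held 56.8 to 62.8% G and C, against a median of 52.4% over all windows. The direct repeat was matched in 1 of 8 windows (Echs1, AGGTCACGGGTCC with 2 mismatches, first base 83 before the start), against 3.24% of all windows. The single site was found in 2 of 8 (Cpt1a and Echs1), against 14.02%, and the CCAAT box in 2 of 8 (Cpt1a and Hadh), against 33.8%. These are letter matches in short windows and say nothing of binding.

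The comparison between the diets asks how the route was expressed in liver on the ketogenic diet. Hadhb, Hadh and Eci1 rose, by 1.56, 1.47 and 1.86 times, and in each of them every ketogenic liver was above every control liver. The other 6 genes tested, Cpt1a, Slc25a20, Cpt2, Hadha, Echs1 and Decr1, had fold estimates of 1.22 to 1.45 and did not pass the threshold, and Cpt1b was too low to test. Thus 3 of 9 tested genes were called higher and 0 lower, where over all 13995 genes tested 2.34% were called higher and 1.44% lower (3.78% in either direction). The median log2 fold change of the 9 genes was 0.38, against -0.0010 over all genes, and all 9 estimates were positive, in a range of 0.28 to 0.90. At an unadjusted p under 0.05 edgeR found 8 of the 9 higher and 0 lower, against 9.05% and 7.67% of all genes. At an adjusted p under 0.05 DESeq2 and limma-voom called 0 lower. Groups without overlap in the direction of the ketogenic diet were found in 3 of the 9 genes and in 2.17% of all genes, and in the opposite direction in 0 of the 9 and in 1.37% of all genes. The genes of this route were chosen with earlier results of these data known, and they were measured in the same livers. These counts are thus a description, and the genes are not separate pieces of support. The test was edgeR's quasi-likelihood test with Benjamini-Hochberg adjustment over all genes and a threshold of 0.05. Without ketogenic 4 the same 3 genes were called, and without control 4 they were called together with Hadha and Decr1, 5 in all. With the replicate number as a block only Hadhb and Eci1 were called. With each library's trend on transcript length also removed, only Eci1 was.

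**Figure D1:**
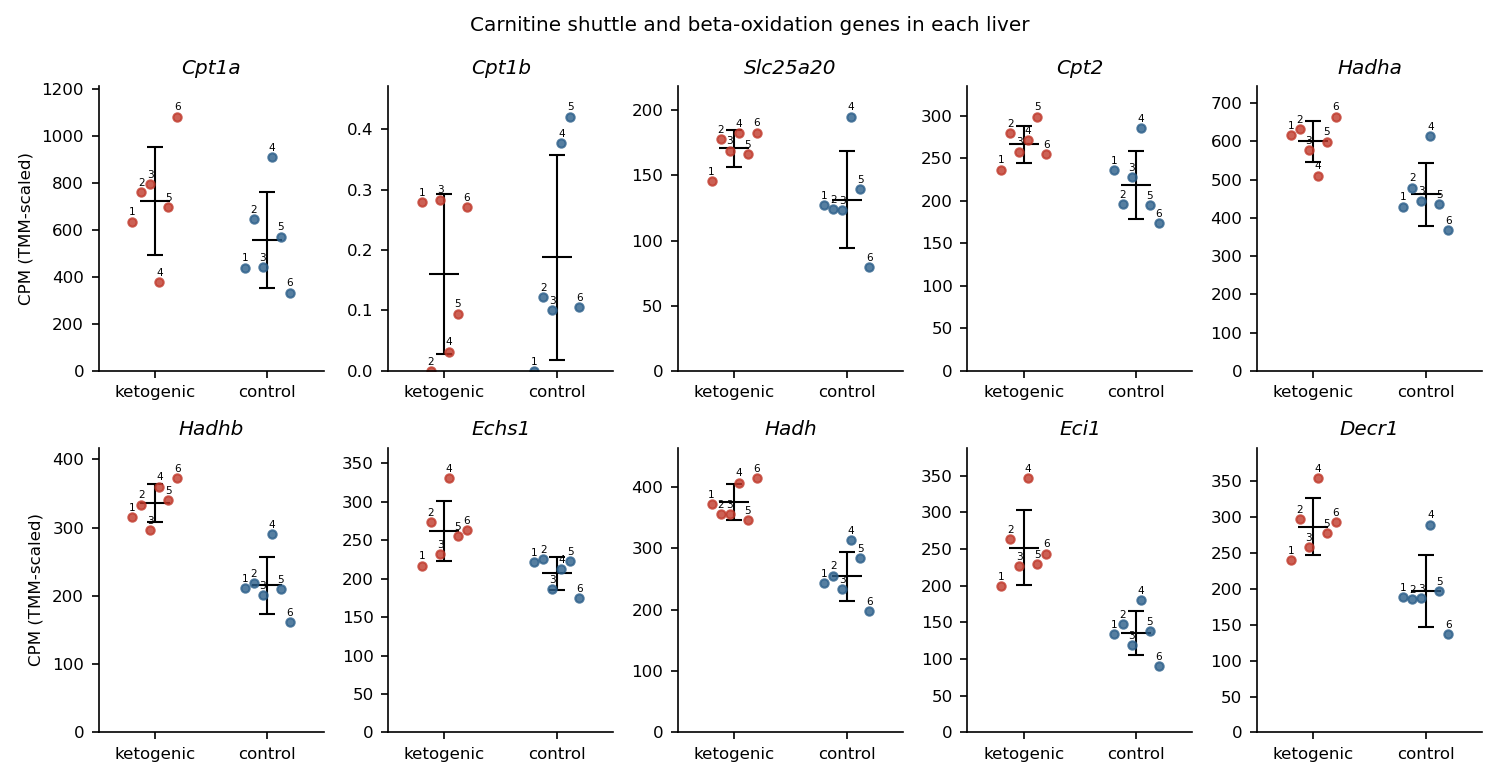
CPM (TMM-scaled, linear axis from 0) of the 10 genes in each liver, ketogenic left and control right, with replicate numbers, the mean as a dash and the SD as bars (n = 6). Hadhb, Hadh and Eci1 have no overlap between the diets, Cpt1a spreads from 379 to 1085 CPM on the ketogenic diet, and Cpt1b stays at or below 0.421 CPM.

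At the gate, Cpt1a (ENSMUSG00000024900, chromosome 19, 3372334 to 3435733 in the deposited coordinates), the liver form of CPT1, had 637, 761, 795, 379, 697 and 1085 CPM in ketogenic livers 1 to 6. In control livers 1 to 6 it had 439.9, 648, 444, 913, 573 and 334 CPM. The diets overlapped broadly, and only ketogenic 6 lay above the highest control liver. The mean was 726 ± 229.7 CPM on the ketogenic and 559 ± 206 CPM on the control diet (SD, n = 6 each), a log2 fold change of 0.38 ± 0.25 (SE; adjusted p = 0.520 in edgeR). The 95% interval of the log2 fold change ran from -0.17 to 0.92, and thus took in both 0 and the estimate of Eci1. Ketogenic 4, in which long transcripts were low, was the lowest ketogenic liver; without it the log2 fold change was 0.51 (adjusted p = 0.230 in edgeR), and the part of transcript length in this value was not tested. Over the fits without 1 library the log2 fold change ran from 0.23 without ketogenic 6 (edgeR adjusted p = 0.749) to 0.57 without control 4 (edgeR adjusted p = 0.238).

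Cpt1b, the muscle form of CPT1, was close to absent. It had 10, 0, 10, 1, 3 and 9 counts in ketogenic livers 1 to 6 and 0, 4, 3, 11, 14 and 3 counts in control livers 1 to 6. Its level was 0.160 ± 0.133 CPM in ketogenic and 0.188 ± 0.170 CPM in control livers (SD, n = 6 each), and the counts of 0 allow up to 0.0878 CPM in ketogenic 2 and 0.0925 CPM in control 1 (3 counts, counting error only). It did not pass the filter on low counts, and no difference between the diets was detectable at this depth. Chkb, a choline kinase gene 496 bases away on the same strand, was at 0.672 CPM in ketogenic and 0.463 CPM in control livers, and was singled out after its values were seen; its part in the counts of Cpt1b was not tested. For every count of Cpt1a there were 1.92e-05 to 0.000461 counts of Cpt1b in ketogenic and 3.51e-05 to 0.000761 in control livers. The log2 ratio differed by -0.63 between the diets (two-sided exact permutation test over 924 splits of the livers, p = 0.502, adjusted over 3 ratios p = 0.751). It was -0.014 without ketogenic 2 and -1.19 without control 1, the livers with 0 counts of Cpt1b, where the ratio is set by the 0.5 added to each count.

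Slc25a20, the carnitine-acylcarnitine carrier, had 146, 178, 169, 183, 166 and 183 CPM in ketogenic livers 1 to 6. In control livers 1 to 6 it had 127, 124, 123, 195, 139 and 79.8 CPM. All 6 ketogenic livers were above 5 of the 6 control livers, and control 4 was the highest of all 12. The log2 fold change was 0.38 ± 0.16 (SE; edgeR adjusted p = 0.251), and 0.52 without control 4 (adjusted p = 0.0528). Cpt2, which returns the acyl group to coenzyme A, had 237, 280.02, 258, 271, 299 and 255 CPM in ketogenic livers 1 to 6, against 236, 196, 228, 286, 195 and 174 CPM in control livers 1 to 6. Its 2 diets overlapped through control 4, and 1 ketogenic liver was above it. Cpt2 had a log2 fold change of 0.28 ± 0.12 (SE; edgeR adjusted p = 0.250). The ratio of Cpt1a to Cpt2 counts, the outer against the inner step, was 1.40 to 4.25 in ketogenic and 1.86 to 3.30 in control livers, a log2 difference of 0.09 (two-sided exact permutation test, p = 0.751, adjusted p = 0.751). This difference turned negative without ketogenic 6, at -0.053.

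Hadhb, the thiolase subunit of the trifunctional protein, had 315, 334, 297, 360.3, 340.2 and 373 CPM in ketogenic livers 1 to 6. In control livers 1 to 6 it had 212, 219, 201, 290.3, 209.9 and 161 CPM. The diets did not overlap, though control 4 came within a few CPM of ketogenic 3. The log2 fold change was 0.64 ± 0.13 (SE; edgeR adjusted p = 0.0110). Hadha, the subunit with the hydratase and dehydrogenase activities, had 616, 633, 578, 510.4, 599.6 and 665 CPM in ketogenic livers, against 429.6, 479, 445, 614, 436 and 367 CPM in control livers. Garem2, which overlaps Hadha on the other strand, was at 0.0150 CPM in ketogenic and 0.0115 CPM in control livers. For Hadha control 4 lay among the ketogenic livers and ketogenic 4 was the lowest of its diet. The log2 fold change of Hadha was 0.38 ± 0.12 (SE; edgeR adjusted p = 0.114), and the call was made without control 4 (0.48, adjusted p = 0.0260).

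The subunits work as one complex, and their transcripts differed in ratio between the diets. Per count of Hadhb there were 1.95, 1.90, 1.95, 1.42, 1.76 and 1.78 counts of Hadha in ketogenic livers 1 to 6. In control livers 1 to 6 there were 2.03, 2.19, 2.21, 2.11, 2.08 and 2.28. Every ketogenic liver was below every control liver. On the log2 scale the ratio was 0.83 ± 0.17 in ketogenic and 1.10 ± 0.06 in control livers (SD, n = 6 each), a difference of -0.27 (two-sided exact permutation test, p = 0.00216, the smallest that 924 splits can give, adjusted over 3 ratios p = 0.00649). Ketogenic 4 had the lowest ratio, and Hadha has the longer transcript, 4017 against 2048 bases; without ketogenic 4 the difference was -0.20 (adjusted p = 0.0130), and with each library's trend on transcript length removed, an alternative chosen after the data were seen, it was -0.22 (adjusted p = 0.00649).

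**Figure D2:**
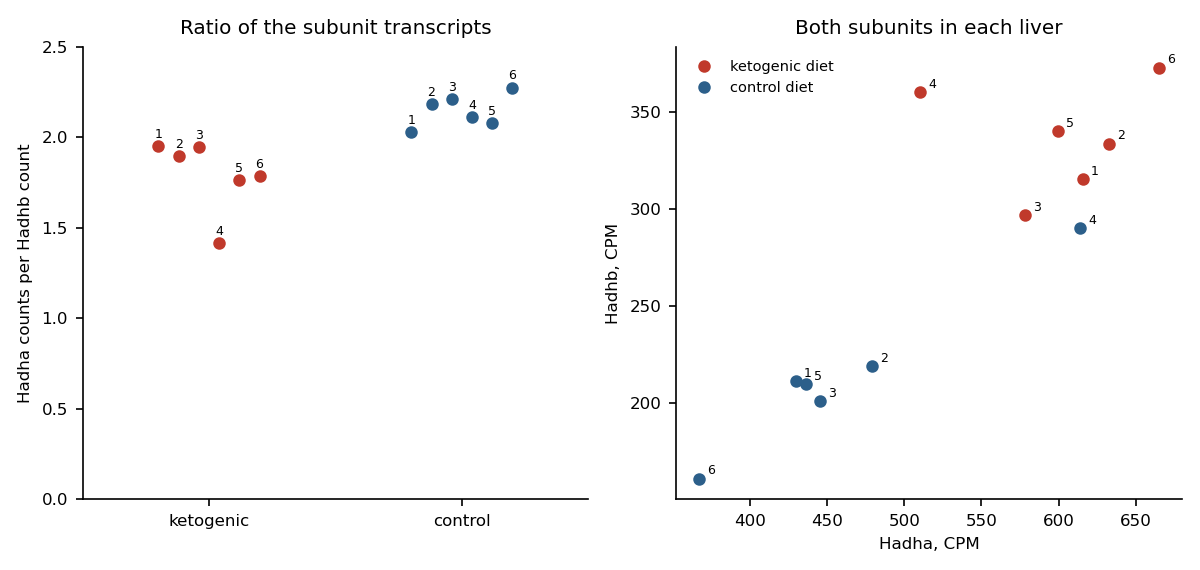
Left, Hadha counts per Hadhb count in each liver (linear axis from 0), ketogenic at 1.42 to 1.95 and control at 2.03 to 2.28. Right, CPM of Hadhb against CPM of Hadha with replicate numbers. Control 4 and control 6 sit at the ends of the control livers, and ketogenic 4 lies apart from the other ketogenic livers.

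Whether the pair varied together from liver to liver was examined for this 1 pair on log2 CPM with the mean of each diet removed. Over the 12 livers Pearson's r was 0.796 (permutation within diets, p = 0.0248) and Spearman's rho 0.524 (p = 0.0958). Without control 4 and control 6, the livers farthest from the median, r was 0.110 (permutation p = 0.824). With ketogenic 4 kept, the relation thus depended on those livers. By permutation r was 0.535 (p = 0.120) without control 4 alone and 0.689 (p = 0.0800) without control 6 alone. In the 6 ketogenic livers r was 0.0513 (exact permutation p = 0.925) with rho 0.257 (p = 0.658), and in the 6 control livers r was 0.977 (exact permutation p = 0.00833) with rho 0.771 (p = 0.103). Without ketogenic 4 the r over both diets was 0.959, and the 5 ketogenic livers that remain had r 0.855 (exact permutation p = 0.0667) and rho 0.700, so that the low value on the ketogenic diet rests on ketogenic 4.

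Among the soluble matrix enzymes, Hadh, the dehydrogenase for medium and short chains, had 372, 355, 356, 407, 345 and 414 CPM in ketogenic livers 1 to 6. In control livers 1 to 6 it had 243, 255, 233, 313, 284 and 197 CPM. The diets did not overlap. The log2 fold change was 0.56 ± 0.12 (SE; edgeR adjusted p = 0.0144). Echs1, the short-chain enoyl-CoA hydratase, had 217, 274, 232, 331, 256 and 263 CPM in ketogenic livers, against 221, 225, 186, 212, 223 and 174 CPM in control livers. Only ketogenic 1 fell among the control livers, and ketogenic 4 was the highest of all. Echs1 had a log2 fold change of 0.34 ± 0.12 (SE; edgeR adjusted p = 0.137), and 0.26 without ketogenic 4 (adjusted p = 0.139). Paox, which overlaps Echs1 on the other strand, was at 41.4 CPM in ketogenic and 33.3 CPM in control livers, and reads of the 2 genes cannot be told apart where the counting ignored strand.

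Auxiliary enzymes handle unsaturated chains, whose double bonds the standard cycle cannot process. Eci1 (ENSMUSG00000024132, chromosome 17, 24645615 to 24658322 in the deposited coordinates), the mitochondrial enoyl-CoA isomerase that moves such a bond, had 199, 263, 227, 347, 229.6 and 244 CPM in ketogenic livers 1 to 6. In control livers 1 to 6 it had 134, 148, 118, 181, 138 and 90.7 CPM. The diets did not overlap, and ketogenic 4 was the highest. Its log2 fold change of 0.90 ± 0.17 (SE; edgeR adjusted p = 0.00718) was the largest estimate of the 9, and was 0.78 without ketogenic 4 (adjusted p = 0.00688). Decr1, the 2,4-dienoyl-CoA reductase of mitochondria, had 239.7, 297, 259, 355, 278 and 293 CPM in ketogenic livers, against 188, 185, 187, 289.6, 197 and 137 CPM in control livers. All ketogenic livers were above 5 of the control livers, and control 4 lay among them. Decr1 had a log2 fold change of 0.54 ± 0.16 (SE; edgeR adjusted p = 0.0750), and was called without control 4 (0.68, adjusted p = 0.0101).

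The same control livers stood at the ends in gene after gene. Control 4 was the highest control liver in 8 of the 9 tested genes, all but Echs1, and control 6 was the lowest control liver in all 9. Outside these genes control 6 was also the lowest control liver in every gene of the first and last steps and electron transfer listed below. The same held for every further auxiliary enzyme listed there, and for Crat, Crot, Acsl1, Acacb and Mlycd. Control 6 was not the lowest control liver in Slc22a5 or Acaca, and was the highest in Acsl3. How often these livers stood at the ends over all genes was not counted, so the pattern cannot be called particular to this route. On the ketogenic diet ketogenic 6 was the highest in 5 genes (Cpt1a, Slc25a20, Hadha, Hadhb and Hadh), while ketogenic 4 was the highest in Echs1, Eci1 and Decr1 and the lowest in Cpt1a and Hadha. The kinase gene Pdk4, another PPAR-alpha target of the fasting response, is given beside them because an earlier result of these data showed it to split the livers. It was at 10.02, 18.5, 51.2, 85.8, 211 and 243 CPM in ketogenic livers 1 to 6, against 4.41, 17.1, 33.2, 313, 181 and 213 CPM in control livers 1 to 6. On each diet livers 1 to 3 were all below livers 4 to 6 in Pdk4, and the part of the replicate number in this was not tested. Control 4 and ketogenic 6 were the highest of their diets in Pdk4 too, while control 6, the lowest control liver in all 9 genes, was next to the highest.

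**Figure D3:**
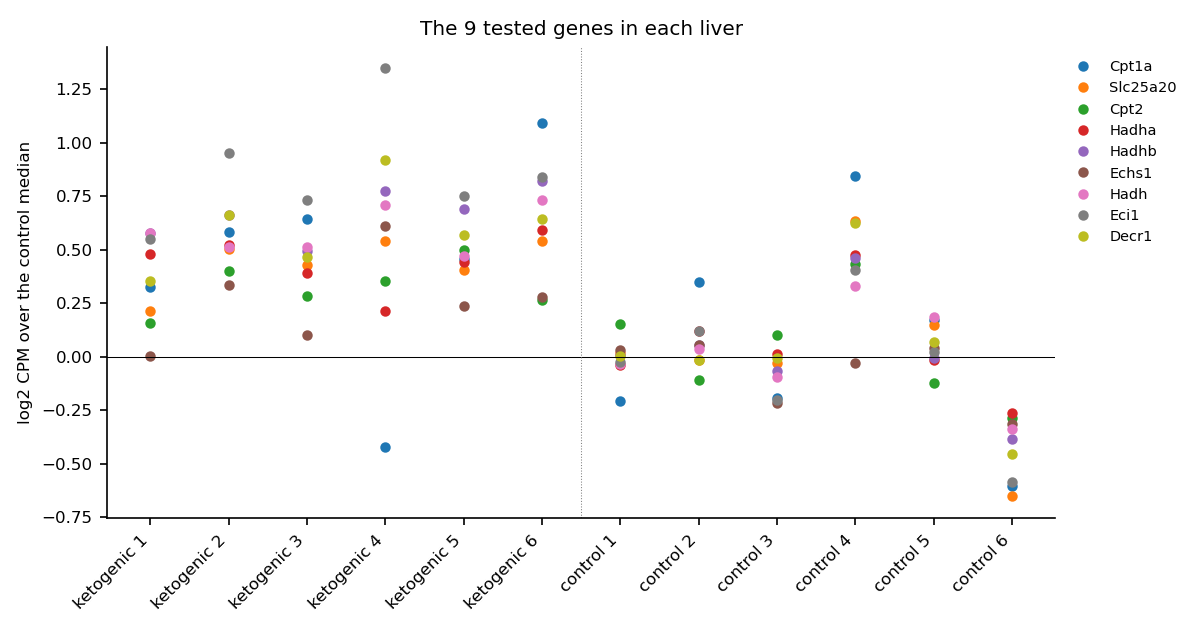
Log2 CPM over the gene's control median for the 9 tested genes (colours), ketogenic livers left of the dotted line and control livers right of it. Control 6 is below 0 and control 4 above 0 in all genes but Echs1 in control 4, and ketogenic 4 has the widest spread, with Eci1 at the top and Cpt1a at the bottom.

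As a description of likeness, each of the 9 tested genes was set against the 8077 genes of at least 10 CPM by Pearson's r of log2 CPM with diet means removed, over 12 livers that share libraries and the extremes of control 4 and control 6. The most alike gene outside the 10 was Uroc1 for Cpt1a (r = 0.962), Hsd17b4, a peroxisomal beta-oxidation enzyme, for Slc25a20 (0.949), Adtrp for Cpt2 (0.943), the acyl-CoA dehydrogenase gene Acad11 for Hadha (0.956), Cmbl for Hadhb (0.928), the respiratory chain gene Sdhb for Echs1 (0.969), Mme for Hadh (0.928), Cd59a for Eci1 (0.958) and the peroxisomal thioesterase gene Acot8 for Decr1 (0.966). Each of these r was picked as the highest over that many genes, so it is high partly by the choice. Among all the other genes, the nearest of the 10 ranked 32 for Cpt1a, 26 for Cpt2, 28 for Hadha and 92 for Echs1. It ranked 2 for Slc25a20 and Hadhb, 3 for Decr1, 4 for Hadh and 8 for Eci1. Among the 10 genes themselves, Slc25a20 and Decr1 were closest to each other (0.938).

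Levels between genes were compared per kilobase of transcript (CPM per kb). On the ketogenic diet the order was Eci1 at 221 ± 44.97, Hadh at 209 ± 16.2, Echs1 at 168 ± 25.4, Cpt1a at 168 ± 53.2, Hadhb at 164 ± 13.7, Hadha at 149 ± 13.2, Cpt2 at 112 ± 9.16, Decr1 at 96.9 ± 13.4, Slc25a20 at 95.7 ± 7.86 and Cpt1b at 0.0553 ± 0.0458 CPM per kb (mean ± SD, n = 6). Neighbours in this order overlapped within 1 SD except Hadha and Cpt2, and Slc25a20 and Cpt1b. On the control diet it was Hadh at 142 ± 22.6, Echs1 at 133 ± 13.8, Cpt1a at 129 ± 47.6, Eci1 at 119 ± 26.4, Hadha at 115 ± 20.6, Hadhb at 105 ± 20.5, Cpt2 at 92.4 ± 16.8, Slc25a20 at 73.7 ± 20.9, Decr1 at 66.7 ± 16.9 and Cpt1b at 0.0648 ± 0.0586 CPM per kb, where Decr1 and Cpt1b alone did not overlap. The carrier gene Slc25a20 and the reductase gene Decr1 were thus the lowest of the 9 tested genes per kilobase on both diets.

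Of 34 other genes of the pathway, 33 were in the table and 32 were tested, with 7 called higher, 0 lower and 25 not called, against the 2.34% and 1.44% of all genes given above, and a median log2 fold change of 0.23. At an unadjusted p under 0.05 edgeR found 13 of them higher and 1, Acaca, lower, against the 9.05% and 7.67% of all genes given above. At an adjusted p under 0.05 Acaca was the 1 that DESeq2 called lower. The list of these other genes was also chosen with earlier results of these data known. Of 9 genes of the first and last steps and of electron transfer 5 rose. Among them were the acyl-CoA dehydrogenase genes Acadvl, Acadl, Acadm and Acads, with log2 fold changes of 0.44, 0.70, 0.84 and 0.71 (edgeR adjusted p = 0.0215, 0.00241, 0.00219 and 0.00456). The other was Hsd17b10, a short-chain dehydrogenase of the matrix, at 0.84 (edgeR adjusted p = 0.0134). In Hsd17b10 the diets overlapped, with ketogenic 1 at 77.5 CPM inside the control range of 62.8 to 88.2 CPM. Acaa2, the matrix thiolase, was at 1226 ± 126 CPM in ketogenic and 965 ± 126 CPM in control livers (SD, n = 6 each; log2 fold change 0.34, adjusted p = 0.128) and was not called. Of 3 further auxiliary enzymes 2 rose: Ech1, a dienoyl-CoA isomerase, had a log2 fold change of 0.90 (edgeR adjusted p = 0.00146) and the peroxisomal reductase gene Decr2 one of 0.92 (edgeR adjusted p = 0.0171). The call of Acadvl was lost without control 1, control 3, ketogenic 2 or ketogenic 6 (edgeR adjusted p 0.0546 to 0.0580) and with no filter on low counts (0.0711), and that of Decr2 without control 3 (adjusted p = 0.0507).

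None of the 7 tested genes of carnitine supply and other acyltransferases was called. Crot, the peroxisomal carnitine octanoyltransferase, was at 1023 ± 162 CPM in ketogenic and 1033 ± 262 CPM in control livers (SD, n = 6 each), Crat, the acetyltransferase, at 133 ± 13.1 CPM in ketogenic and 127 ± 64.4 CPM in control livers, and Slc22a5, the carnitine transporter of the plasma membrane, at 60.01 ± 16.3 CPM in ketogenic and 51.7 ± 26.8 CPM in control livers. The 4 acyl-CoA synthetase genes tested held no call, with Acsl1 at 1911 ± 426 CPM in ketogenic and 1811 ± 1036 CPM in control livers. Of 5 genes listed for the control of malonyl-CoA, the inhibitor of CPT1 (Acaca, Acacb, Mlycd, Prkaa1 and Prkaa2), none was called and all 5 estimates were negative. The list joins carboxylases with a decarboxylase, which act on malonyl-CoA in opposite directions, so the shared sign gives no direction of control. Acaca, the acetyl-CoA carboxylase of lipogenesis, was at 94.5 ± 22.5 CPM in ketogenic and 153 ± 38.8 CPM in control livers (log2 fold change -0.69 ± 0.20, SE; adjusted p = 0.0714), Acacb, the form tied to mitochondria, at -0.25 ± 0.21 (adjusted p = 0.634) and Mlycd, the malonyl-CoA decarboxylase, at -0.08 ± 0.11 (adjusted p = 0.806). The receptor gene Ppara was at 147 ± 56.4 CPM in ketogenic and 124 ± 85.4 CPM in control livers (adjusted p = 0.845) and the coactivator gene Ppargc1a at 7.42 ± 2.59 CPM in ketogenic and 8.78 ± 1.82 CPM in control livers (adjusted p = 0.662). Levels of RNA do not show the activity of either protein.

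**Figure D4:**
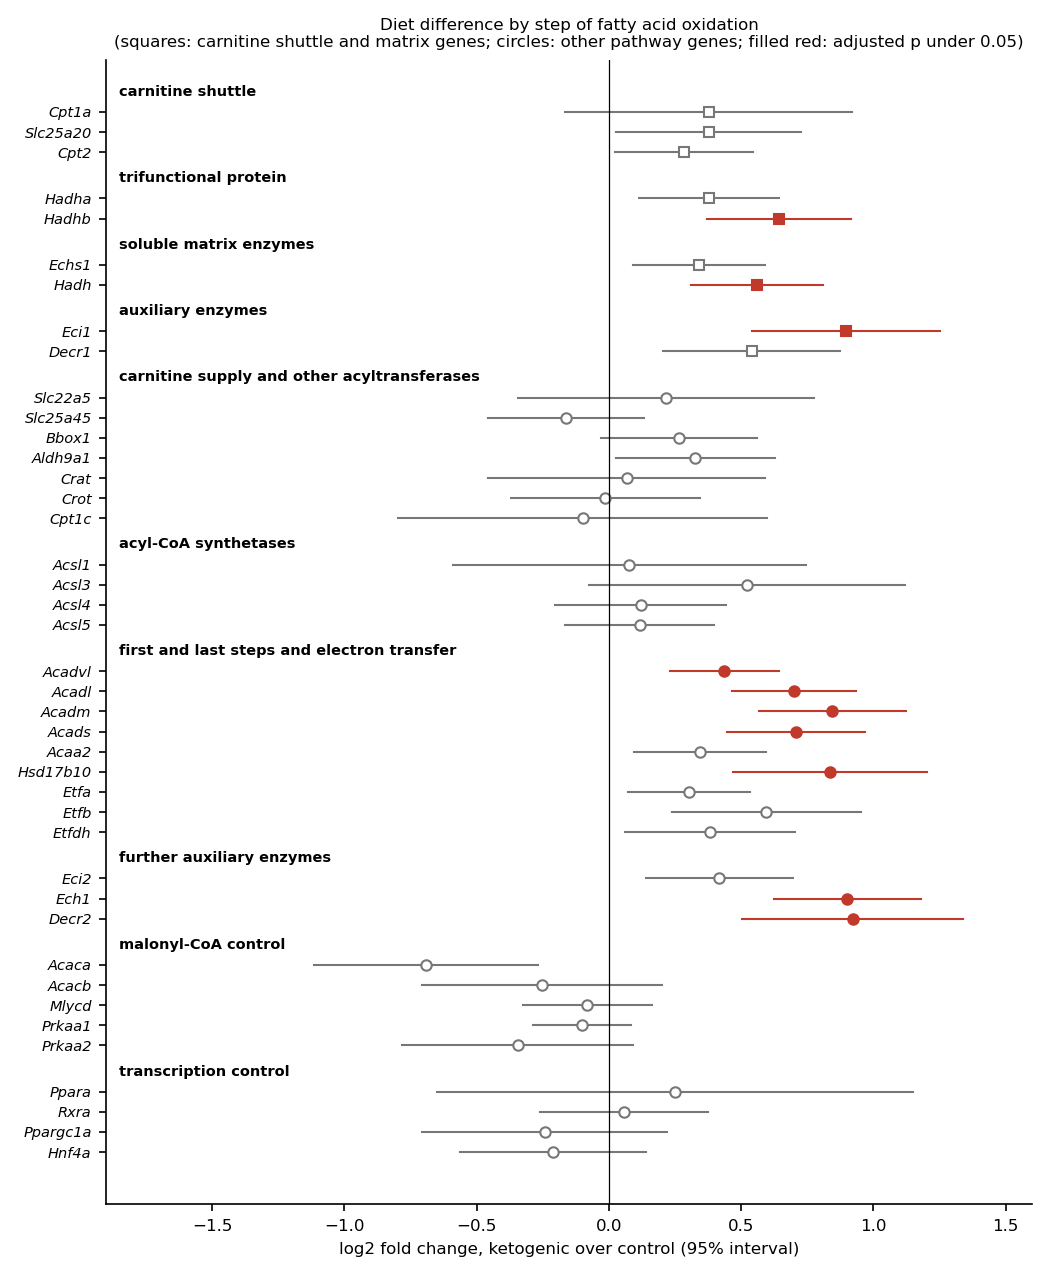
Log2 fold change, ketogenic over control, with 95% intervals (n = 6 per diet) for the 9 tested genes of the shuttle and matrix steps (squares) and 32 other pathway genes (circles), by role; filled red marks an edgeR adjusted p under 0.05. The red points are 3 squares and 7 circles, and the shuttle, carnitine supply, synthetase, malonyl-CoA and transcription groups hold none.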

How the data were processed

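Total RNA of 12 mouse livers was sequenced after a NEBNext Ultra library preparation, per the labels' protocols. A deposited table holds gene counts, whole numbers whose totals differ between libraries. The submitters' processing notes name HISAT2 2.1.0, fastp 0.19.3, Cufflinks and StringTie 1.3.4d with no role. The sources used here do not give the counting program, its strand setting, the annotation or the build.

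The test of diet was edgeR 4.0.16 under R 4.3.3 (filterByExpr by diet, 13995 genes, TMM factors, robust quasi-likelihood fit, no covariate). A gene was called where its p, adjusted by Benjamini-Hochberg over all genes, was under 0.05. CPM use TMM-scaled totals, and lengths are those of the longest principal transcript in GENCODE M21. Ratios are of counts with 0.5 added. The common biological coefficient of variation was 0.256. On simulated counts the fit was tested before use, with changes larger than any estimate among the tested members. The outcome is not given here, and such a test does not speak for calls of the members' size. No 2 libraries of a diet agreed within sampling noise (chi-square over its degrees of freedom at least 44.1). The members and lists were chosen with earlier results of these data known; the genes named are the 10, the called genes of the pathway list and 10 others of it, genes that overlap one of the 10 (and, chosen after their values were seen, the adjacent Chkb and the marker Cidea), the most alike gene of each, and Pdk4, which an earlier result showed to split the livers. Alternatives were DESeq2 1.42.0, limma-voom (limma 3.58.1), RLE factors, library size only, other filters, removal of the 10 most abundant genes, a replicate block, 1 surrogate variable (sva 3.50.0), removal of each library's length trend (spline, 4 degrees of freedom) and each library left out.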

Additional observations from a re-analysis of the deposited data

Results flagged for a closer look

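Of 60 sets of 6 livers looked at, for 27 genes and 3 ratios in each diet, 7 held a highest or lowest liver farther from the next than Dixon's 95% critical value for 6 samples allows. Chance flags about 1 in 20 such sets. The Hadha to Hadhb ratio was 1.42 in ketogenic 4, with the next ketogenic liver at 1.76. Acadm was at 845 CPM in ketogenic 4, with the next at 665 CPM, and Slc22a5 at 91.2 CPM in ketogenic 6, with the next at 60.3 CPM. In control 4, Ppara was at 287 CPM with the next at 130 CPM, Crat at 248 CPM with the next at 135 CPM, and Slc22a5 at 105 CPM with the next at 49.9 CPM. Acads was at 145 CPM in control 6, with the next at 179 CPM.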

How the results depend on the processing

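The direction of the 9 tested genes was the same in all 207 repeats under the alternatives, and 198 also kept the side of the threshold. Hadha was also called with DESeq2 (adjusted p = 0.0493) and 1 surrogate variable (0.0204), and Decr1 with DESeq2 (0.0248) and library size only (0.0374). The 3 calls became 5 with DESeq2 and 1 (Eci1) with the length trend removed together with a replicate block, and ran from 3 to 5 over the fits without 1 library; 0 were called lower in any. Same-numbered livers of the 2 diets deviated with correlations of -0.291 to 0.336, so the numbers were not taken as pairs. With the replicate block alone, calls over all genes were 268 in place of 529. Hadh (edgeR adjusted p = 0.0706), Acadvl (0.127), Decr2 (0.0727) and Hsd17b10 (0.0590) were then not called. The 9 genes held 2 calls under the block, and other pathway genes called higher were 4. The Hadha to Hadhb ratio kept its difference of -0.27 with an adjusted p of 0.0938 (exact p = 0.0312, the smallest that 64 sign flips can give). Where only 1 of the 3 ratios reaches that smallest p, its adjusted p cannot be under 0.05. The block thus cannot decide on this ratio. Calls over all genes were 1028 with DESeq2 and 1279 with 1 surrogate variable, and 319 to 761 without 1 library. With library size only, 77.9% of calls were rises, against 62.0%, and the median of all genes moved to 0.07. Other pathway genes called lower were 1 (Acaca) with DESeq2, with 1 surrogate variable and with the length trend removed, and 0 to 1 without 1 library; those called higher ran from 5 to 8 without 1 library and were 10 with DESeq2. With the length trend removed and the block, Acadvl (adjusted p = 0.134) and Decr2 (0.0724) were not called. The ratios ran from -0.29 to -0.20 (Hadha to Hadhb), -1.19 to -0.01 (Cpt1b to Cpt1a) and -0.053 to 0.27 (Cpt1a to Cpt2) without 1 library. For Hadha with Hadhb, rho was 0.524, r without the 2 farthest livers 0.110, and r without 1 library 0.535 to 0.959. Crot changed sign with limma-voom (0.0053), library size only (0.065), the block (0.010), 1 surrogate variable (0.054) and the length trend with the block (0.00013), and ran from -0.085 to 0.11 without 1 library. Pdk4 did with limma-voom (0.076), the block (0.096) and the length trend with the block (0.091), and ran from -0.76 to 0.20. Without 1 library Crat ran from -0.040 to 0.38 and Acsl1 from -0.092 to 0.42. With no filter Cpt1b had a log2 fold change of -0.21 (edgeR adjusted p = 0.927). The cause of these changes was not tested.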
